A study of Mus musculus with 4 samples.

Results

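The genes described here were 7 receptor genes for glutamate and GABA that astrocytes are known to carry: the AMPA receptor subunits Gria1 and Gria2, the metabotropic glutamate receptors Grm3, Grm5 and Grm8, and the GABA-B receptor subunits Gabbr1 and Gabbr2. They were found by symbol among 32287 gene features, and all 7 had UMIs in astrocyte-like cells of both libraries. They were chosen by values seen in earlier results of these same data. Their differences between injured and uninjured cells and between cell classes are therefore given as descriptions and without a test.

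Gene expression was measured in sorted cells of mouse spinal cord in 2 conditions with 1 library each. All animals came from the Cx30-tdTomato line, in which tamoxifen switches on the red reporter tdTomato in cells that use the promoter of Cx30, a gap junction gene of astrocytes. They were 8 to 12 weeks old and received a pool of enhancer viruses in the blood. The injured library came from cords taken 3 days after a mid-thoracic contusion, with the virus given 14 days before the surgery. The uninjured library came from cords of the same line and virus at the same level without an injury. In both, segments of 5 mm from 1 to 2 animals per sex were pooled, digested and sorted for tdTomato, so the animals cannot be told apart. With 1 library per condition, no difference below has a replicate check, no p-value was computed, and the 95% intervals cover counting error only. The series' design text writes 14 days beside the contusion, whereas the methods give 14 days as the time from virus to surgery.

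By GENCODE M21 on GRCm38 (mm10), all 7 are protein-coding genes, at chr11:57011387-57330244 (Gria1), chr3:80681450-80802835 (Gria2), chr5:9485541-9725170 (Grm3), chr7:87584168-88134907 (Grm5), chr6:27275119-28135178 (Grm8), chr17:37045966-37075067 (Gabbr1) and chr4:46662305-46991873 (Gabbr2). Gria1, Gabbr1 and Gabbr2 overlap no other gene, whereas Grm5 holds 5 other gene models on its own strand, Grm8 holds 2, and Gria2 and Grm3 hold 1 each, whose reads may have been split from theirs.

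AMPA receptors are ion channels opened by glutamate, and the subunit GRIA2 lowers their permeability to calcium. GRM5 couples to phospholipase C and releases calcium from internal stores, while GRM3 and GRM8 couple to inhibitory G proteins. GABBR1 binds GABA and GABBR2 carries the signal to the G protein, and the receptor works as a dimer of both. In astrocytes such receptors sense transmitter released by neurons. Since neurons carry all of these genes too, the neuron markers are given beside the values.

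The libraries held 879 injured cells with 8499672 gene UMIs (unique molecular identifiers, 1 per captured RNA molecule) and 4159 uninjured cells with 15543460, after cells outside 500 to 50000 gene UMIs were left out. Of the injured barcodes 40 were above the upper limit, and none of the uninjured ones was. The median depth was 6816 gene UMIs in injured and 3343 in uninjured cells, and 7 barcodes occurred in both libraries. Among cells that could be scored for sex, 250 were female and 315 male in the injured library, but 2 were female and 2770 male in the uninjured library, although the labels give both sexes for each condition. Clustering without the receptor genes gave 14 clusters, of which 13 were named by markers in 8 classes. The astrocyte-like class had 355 injured and 2920 uninjured cells, and 8 of 8 astrocyte markers had UMIs in both.

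The injured and uninjured astrocyte-like cells lay in different clusters, and this bears on every comparison below. Cluster 3, led by Tgm1, Lcn2 and Gfap, held 311 of the 355 injured cells (87.6%) and 17 of the 2920 uninjured cells. Clusters 4, 7, 11 and 12 held the other uninjured cells (708, 300, 1342 and 553) and the other 44 injured cells. Gfap, the intermediate filament of reactive astrocytes, was at 2907 CPM (UMIs per 1000000 gene UMIs of the cells concerned) in injured cells of cluster 3 and at 1367 CPM in injured cells of cluster 4, against 34.5 CPM in uninjured cells of cluster 4. Injured cells of cluster 3 had the astrocyte markers Slc1a2 at 3665 CPM and Aqp4 at 2433 CPM, with UMIs in 91.6% and 80.4% of them. All 8 astrocyte markers reached 10% of the cells of cluster 3. Its average astrocyte marker score was 0.65, below the 0.72 to 1.32 of clusters 4, 7, 11 and 12. Whether cluster 3 counts as astrocyte-like depended on how clusters were named. The rule used here was settled after the cluster names and the receptor genes' ratios under other rules had been seen. Under the 12 other setups tried, at most 27 of the 311 injured cells of cluster 3 were named astrocyte-like. Under the rule used here but at Leiden resolution 1.0, a cluster led by Tgm1 and Vgf with 177 injured cells stayed unnamed. Another, with Gfap among its leading genes and 158 injured cells, was named astrocyte-like. Values are therefore given for cluster 3 and for the other injured cells apart.

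Of the 7 genes, Grm5 was past 2-fold higher and Gria2 past 2-fold lower in injured than in uninjured astrocyte-like cells, and the other 5 were within 2-fold. Over the 9932 genes at 10 CPM or more in either condition, 12.8% were past 2-fold higher and 6.6% past 2-fold lower. The median log2 ratio of the 7 genes was -0.50 against 0.039 over all genes tested (log2 of CPM plus 1 in injured over uninjured cells, here and below). The direction for Grm5 held under every setting tried. The fall of Gria2 did not: without cluster 3 its log2 ratio was 0.31.

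**Figure D1:**
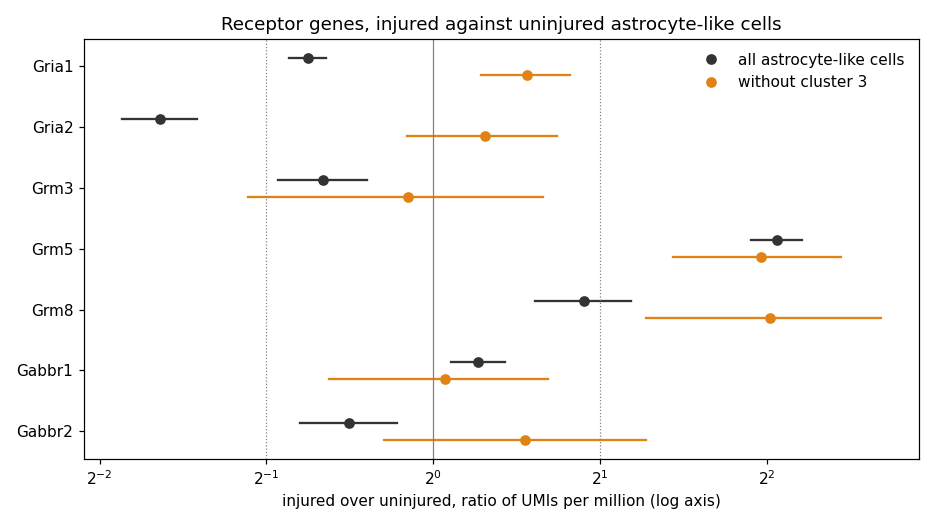
Ratio of CPM in injured over uninjured astrocyte-like cells on a log axis for the 7 receptor genes, with 95% intervals for counting error, for all astrocyte-like cells and for those outside cluster 3. Dotted lines mark 2-fold. Grm5 lies above 2-fold in both, at 4.17 and 3.90, whereas Gria2 moves from 0.321 to 1.24 when cluster 3 is left out.

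Gria1 encodes an AMPA receptor subunit that forms channels permeable to calcium when GRIA2 is missing. Injured astrocyte-like cells held 750 UMIs of it and uninjured ones 6904, or 376 CPM (95% interval 350 to 404) and 634 CPM (619 to 649). The log2 ratio was -0.75. In the injured library it was at 338 CPM in cluster 3 and at 937 CPM in the other 44 cells, so these 2 sets lay on either side of the uninjured level. Among the uninjured clusters 4, 7, 11 and 12 it ran from 376 CPM in cluster 7 to 886 CPM in cluster 12, a ratio of 2.36 (2.14 to 2.61). The spread among uninjured clusters was thus larger than the difference between the conditions.

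Gria2 had 174 UMIs among injured astrocyte-like cells and 2956 among uninjured ones, at 87.2 CPM (74.7 to 101) and 271 CPM (262 to 281). The level was 3.11-fold lower in injured cells (2.67 to 3.65), and 155 of the 9932 genes had a lower ratio. Within the injured library Gria2 was at 70.1 CPM (58.6 to 83.2) in cluster 3 and at 339 CPM in the other 44 cells, from 43 UMIs. The 17 uninjured cells of cluster 3 were also low, at 83.3 CPM (36.0 to 164) from 8 UMIs. Gria2 was thus low in cluster 3 of both libraries, with few cells in the uninjured one. The fall stayed past 2-fold under all 16 settings that counted cluster 3 at least in part, including the definition by an Aldh1l1 UMI that used no cluster (log2 ratio -1.61). Under the 12 setups that left most of cluster 3 out it ran from -0.85 to 0.36.

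Grm5 encodes the glutamate receptor coupled to phospholipase C. It had 604 UMIs in 90 of 355 injured cells and 791 UMIs in 412 of 2920 uninjured cells, at 303 CPM (279 to 328) and 72.6 CPM (67.6 to 77.9). The level was 4.17-fold higher in injured cells (3.74 to 4.64), and 348 of the 9932 genes had a higher ratio. Unlike Gria2, it was high in injured cells both inside and outside cluster 3, at 304 CPM and 283 CPM. Outside cluster 3 the injured UMIs were few and uneven, with 28 in the 27 cells of cluster 4, 14 of them in 1 cell, 8 in the 8 cells of cluster 11 and 0 in clusters 7 and 12, of 4 and 5 cells. In the 17 uninjured cells of cluster 3 it was at 72.9 CPM (29.3 to 150) from 7 UMIs, near the level of the other uninjured cells. Each of these last values rests on few UMIs.

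The Grm5 UMIs were concentrated in few cells. The 10 injured cells richest in Grm5 held 269 of its 604 UMIs (44.5%), with up to 45 in a cell and a median depth of 17030 gene UMIs. Without the 10 richest cells of each library the ratio was 2.90 (2.54 to 3.31). This step took 10 of 355 injured but 10 of 2920 uninjured cells, a larger share of the injured ones. It therefore tends to lower ratios in itself, here and below, and the ratio of each of the 7 genes fell. After each cell was thinned to 1000 gene UMIs, 10.8% of injured cells (7.6 to 14.7) and 6.1% of uninjured cells (5.2 to 7.0) had a Grm5 UMI, and the log2 ratio was 1.14. Before thinning the shares were 25.4% and 14.1%. Thinning left out 30 injured and 65 uninjured cells.

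Cells named for markers of oligodendrocyte precursors (OPC-like cells) also had Grm5 UMIs. They were at 621 CPM in 68 injured cells and at 1329 CPM (1107 to 1582) in 14 uninjured ones. An OPC marker UMI was found in 53 of the 68 and in all 14. At Leiden resolution 1.0 the OPC-like cluster held 46 injured cells, so the injured class may hold other cells. Of the 6 OPC markers, Pdgfra, Gpr17 and Neu4 were at 0 UMIs in injured astrocyte-like cells, and Cspg4 and C1ql1 had 5 UMIs each. The sixth, Lhfpl3, was high in astrocyte-like cells of either library, at 499 CPM (injured) and 606 CPM (uninjured). Leaving out astrocyte-like cells with any OPC marker UMI kept 181 injured and 826 uninjured cells, and the Grm5 log2 ratio was then 1.57. Past 2-fold lower under this filter were Gria1 (-1.80), Gria2 (-2.98), Grm3 (-1.93), Grm8 (-1.90) and Gabbr2 (-3.12), the last 4 from 5 to 18 injured UMIs each, and Gabbr1 was at -0.23. Grm8 was thus lower under it but higher in all astrocyte-like cells. Over all genes tested under this filter 20.8% were past 2-fold higher and 23.7% past 2-fold lower.

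Grm3, a receptor coupled to inhibitory G proteins, had 132 injured and 1139 uninjured astrocyte-like UMIs, at 66.2 CPM (55.4 to 78.5) and 105 CPM (98.6 to 111). The log2 ratio was -0.65. It was at 64.2 CPM in injured cells of cluster 3 and at 94.5 CPM in the other injured cells, from 12 UMIs, and the intervals of these overlapped. The 10 richest injured cells held 40.2% of its UMIs. Without the 10 richest cells of each library, a larger share of the injured cells, its log2 ratio was -1.22, past 2-fold. Among the uninjured clusters 4, 7, 11 and 12 it ran from 65.1 CPM in cluster 7 to 144 CPM in cluster 12. In mural-like cells, of which there were few, it was at 1119 CPM (906 to 1368) in 13 injured cells and at 2786 CPM (1677 to 4350) in 3 uninjured ones, where 15 of the 19 UMIs were in 1 cell.

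Grm8, also coupled to inhibitory G proteins, had 138 UMIs in 47 injured cells and 403 UMIs in 179 uninjured cells, at 69.2 CPM (58.1 to 81.7) and 37.0 CPM (33.5 to 40.8). The log2 ratio was 0.89, short of 2-fold. Outside cluster 3 it was at 150 CPM in injured cells, from 19 UMIs, against 36.9 CPM in uninjured cells. The 10 richest injured cells held 47.8% of its UMIs. Without the 10 richest of each library, a larger share of the injured cells, the ratio was 1.25 (0.953 to 1.62). The interval then included no difference, after a step that itself tends to lower the ratio.

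Gabbr1 encodes the subunit that binds GABA. Injured astrocyte-like cells held 380 UMIs and uninjured ones 1721, at 190.5 CPM (172 to 211) and 158 CPM (151 to 166), with a log2 ratio of 0.27. It was at 192 CPM in cluster 3 and 165 CPM in the other injured cells, and between 141 and 180 CPM in uninjured clusters 4, 7, 11 and 12. After thinning, 15.4% of injured and 14.9% of uninjured cells had a UMI. Without the 10 richest cells of each library, a larger share of the injured cells, its ratio was 1.04 (0.916 to 1.18). The interval then included no difference, after a step that itself tends to lower the ratio. The ratio of its highest to its lowest uninjured cluster was 1.28 (1.06 to 1.54).

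Gabbr2, the partner subunit, had 113 injured and 875 uninjured astrocyte-like UMIs, at 56.6 CPM (46.7 to 68.1) and 80.3 CPM (75.1 to 85.8), with a log2 ratio of -0.50. It was at 52.5 CPM in injured cells of cluster 3 and at 118 CPM in the other injured cells, from 15 UMIs. Without the 10 richest cells of each library, a larger share of the injured cells, its log2 ratio was -1.16, past 2-fold.

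**Figure D2:**
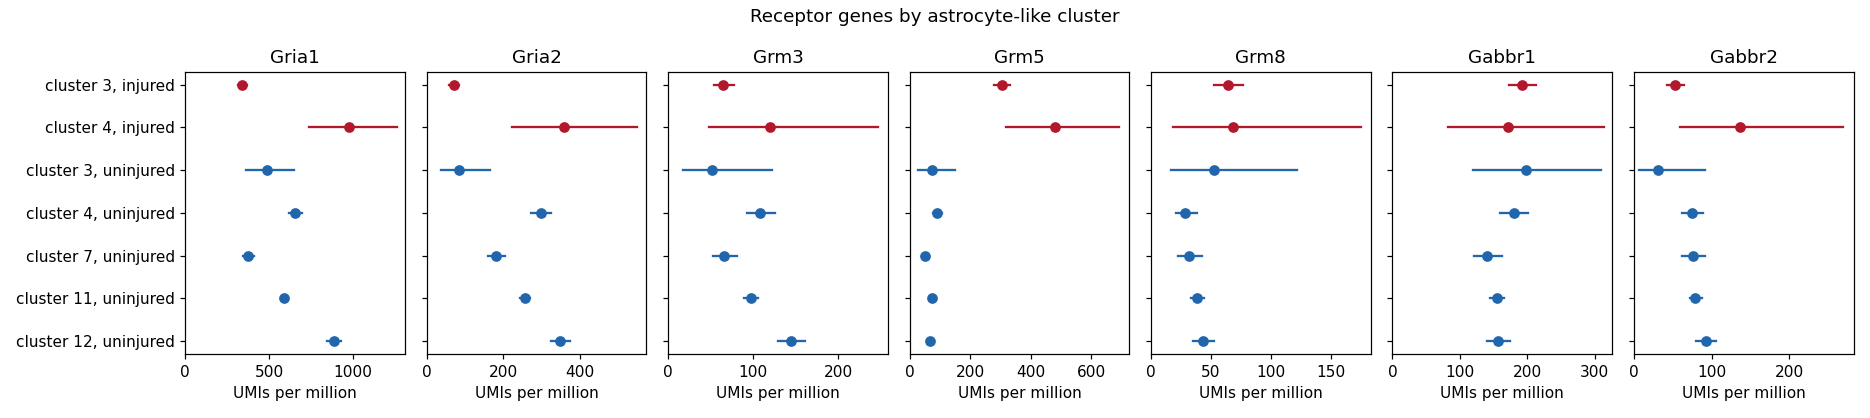
CPM of each receptor gene, with 95% Poisson intervals, in the astrocyte-like clusters with at least 17 cells in a library (injured in red, uninjured in blue, axes starting at 0). Gria2 is low in cluster 3 of both libraries, at 70.1 and 83.3, and Grm5 is at 304 and 478 in the 2 injured clusters drawn, the second from 28 UMIs of which 14 were in 1 cell; the injured cells of clusters 7, 11 and 12 are too few to be drawn.

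The next question was in which cells the genes were found. They were chosen as receptors of astrocytes with earlier results of these data known. Higher levels in astrocyte-like cells thus follow in part from that choice, and the shares over all genes are no test of it. In the uninjured library 5 of the 7 were past 2-fold higher in astrocyte-like cells than in the other named classes pooled (Gria1, Gria2, Grm3, Grm8 and Gabbr2) and Grm5 was past 2-fold lower, against 10.6% and 25.7% of all genes tested. The call for Grm5 was lost in cells without neuron marker UMIs or without OPC marker UMIs, after thinning and in 1 of the other setups, and 44 of its UMIs in the other classes were in 1 neuron-like cell. In the injured library 6 were past 2-fold higher and 0 lower, against 13.4% and 24.4%, and Gria2 was the exception at a log2 ratio of 0.37. The pooled classes differed in makeup between the libraries, so the 2 sets of ratios are not set against each other. Of the 434 Gria2 UMIs in the other named classes of the injured library, 417 were in OPC-like cells, as were 729 of 747 Grm5 UMIs.

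Microglia-like and endothelial-like cells, which should lack most of these receptors, are given as a comparison for RNA from other cells. In 129 injured microglia-like cells, with a median depth of 13386 gene UMIs, Gria1, Grm3 and Grm5 had 1 UMI each and Gria2, Grm8 and Gabbr2 had none. A count of 0 allows up to 3 counts, or 2.33% of these cells with a UMI, which does not limit the share that expresses the gene. In 70 injured endothelial-like cells no gene but Gabbr1 had more than 1 UMI. In 26 uninjured ones Grm3 was at 37.7 CPM (10.3 to 96.6) from 4 UMIs and Gria1 at 28.3 CPM (5.84 to 82.7) from 3, each in 1 cell. In 95 uninjured fibroblast-like cells Gria1 was at 155 CPM (116 to 204), with a UMI in 23.2% of cells. In 32 uninjured microglia-like cells Grm5 had 1 UMI, Gabbr1 had 7 and the other 5 genes had none. The levels in astrocyte-like cells were above those in microglia-like and endothelial-like cells of the same library for all 7 genes, although uninjured classes of few cells had wide intervals (for Grm8 up to 34.8 CPM in endothelial-like cells, against 37.0 CPM in astrocyte-like cells). Gabbr1 was found most widely, at 88.5 CPM in injured ependymal-like cells, 80.1 CPM in injured OPC-like cells and 45.7 CPM in injured fibroblast-like cells. In the uninjured library it was at 169 CPM (96.4 to 274) in 14 OPC-like cells, against 158 CPM in astrocyte-like cells. Uninjured ependymal-like and fibroblast-like cells were at 120 and 82.2 CPM.

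**Figure D3:**
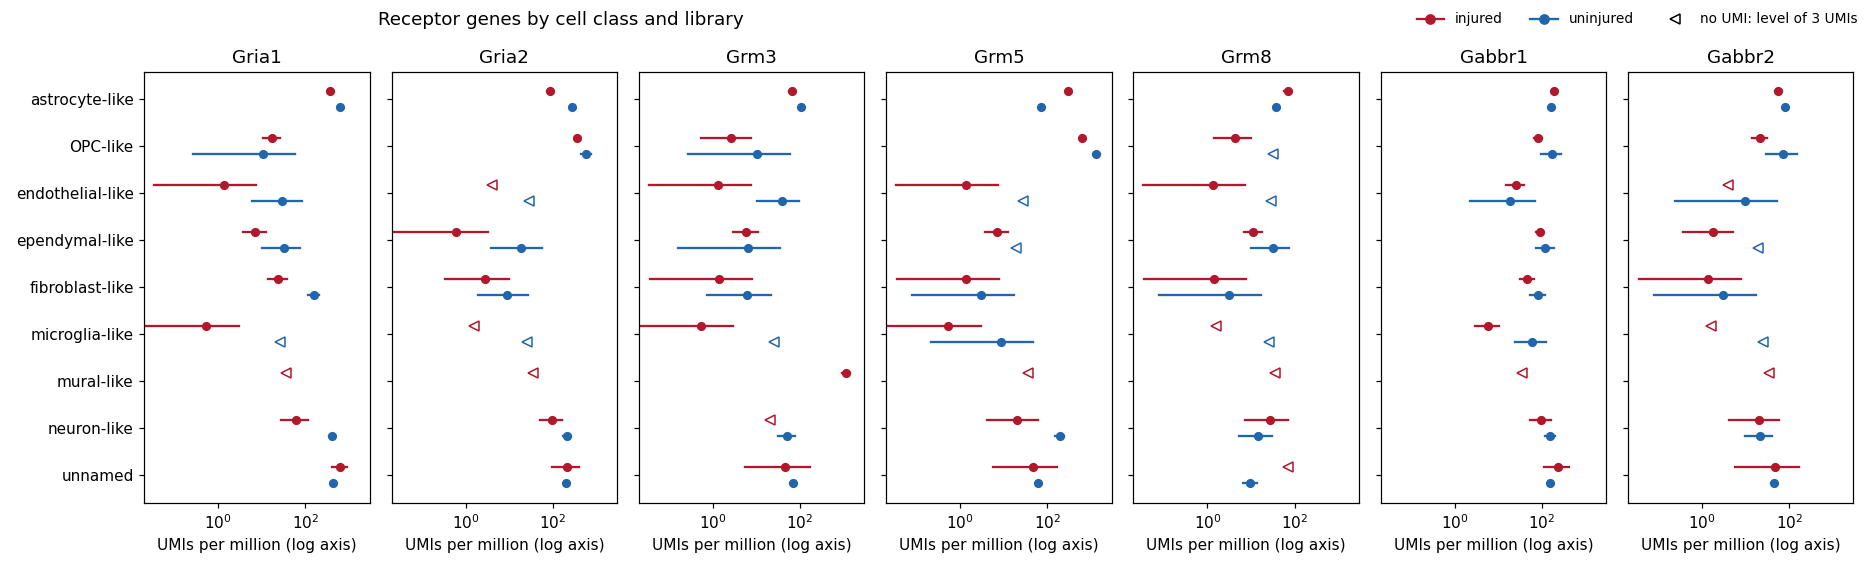
CPM of each receptor gene on a log axis in each class and in the unnamed cluster (injured in red, uninjured in blue), with 95% Poisson intervals; open triangles mark groups with no UMI at the level of 3 UMIs, and groups under 9 cells are not drawn. Astrocyte-like cells are at 303 for Grm5 in the injured and 72.6 in the uninjured library, and injured OPC-like cells at 621.

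The neuron markers moved between the conditions as well. Their sum over 9 genes was 219 CPM among injured astrocyte-like cells and 103 CPM among uninjured ones, but 345 of the 436 injured UMIs were of Stmn2. The other 8 markers together were at 45.6 CPM (injured) and 87.9 CPM (uninjured). Per neuron marker UMI, injured astrocyte-like cells had 1.39 Grm5 UMIs (1.22 to 1.57) and injured neuron-like cells 0.00831, and the uninjured ones had 0.706 and 0.0905. Uninjured astrocyte-like cells had 2.64 Gria2 UMIs per neuron marker UMI (2.46 to 2.83), against 0.103 in uninjured neuron-like cells. Each of the 7 genes was higher per neuron marker UMI in astrocyte-like than in neuron-like cells of the same library. Neuron-like cells were named by these same markers, so their ratios are low in part by that choice. By CPM in the uninjured library, Grm5 was lower in astrocyte-like than in neuron-like cells (72.6 against 190.5). Gabbr1 was nearly equal (158 against 155), and the other genes were higher. In injured neuron-like cells 223 of the 361 marker UMIs were of Syt1, in 4 cells. In astrocyte-like cells without a neuron marker UMI the log2 ratios of Grm5 and Gria2 were 1.95 and -1.56. In neuron-like cells Grm5 had 81 UMIs in the uninjured library, of which 44 were in 1 cell. The neuron-like class was shallow, at a median of 1724.5 gene UMIs (injured) and 1394.5 (uninjured). It was also unstable: at Leiden resolution 1.0 the neuron-like cluster held 8 injured and 165 uninjured cells. A separate cluster of 41 injured and 135 uninjured cells, led by the mitochondrial genes mt-Nd6 and mt-Nd2, then stayed unnamed. Astrocyte markers summed to 941 CPM in its injured and 8237 CPM in its uninjured cells, against 2462 and 2105 CPM for neuron markers.

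The unnamed cluster 10 held 792 uninjured and 9 injured cells with astrocyte markers and with the neurofilament genes Nefm and Nefl among its leading genes. Its uninjured cells had Gria1 at 428 CPM, Gria2 at 200.4 CPM and Grm5 at 62.1 CPM. Counting it as astrocyte-like left the Grm5 and Gria2 log2 ratios at 2.07 and -1.49 and took Grm8 to 1.13.

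The genes around these receptors were described by lists. Of the other AMPA, kainate and delta subunits 7 of 9 passed the filter of 10 CPM, and 5 of them were past 2-fold lower in injured astrocyte-like cells, including Gria4 (227 against 988 CPM, log2 ratio -2.12), Grik4 (-1.27), Grik2 (-1.16) and Grid1 (-1.06). Of the NMDA receptor subunits 3 of 7 passed, and all 3 were past 2-fold lower (Grin2b at -1.45, Grin2c at -1.26 and Grin3a at -1.19). Over all genes tested 6.6% were past 2-fold lower. Median log2 ratios of the 2 lists were -1.06 and -1.26 against 0.039 over all genes. Without cluster 3, which left 44 injured cells, 0 genes of the first list and 1 of the second were past 2-fold lower. Most of these falls thus went with cluster 3. The share of all genes past 2-fold lower without cluster 3 is given in the section on processing.

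Among the other metabotropic glutamate receptors 1 of 5 passed the filter, and this gene, Grm7, was at 19.6 CPM after injury and 2.85 CPM without (39 and 31 UMIs, log2 ratio 2.42). Over all genes tested 12.8% were past 2-fold higher and 6.6% past 2-fold lower. None of 6 GABA-A subunits, 5 AMPA receptor auxiliary subunits or 5 Homer and GABA-B auxiliary genes that passed was past 2-fold. Of the genes for G proteins, phospholipase C and IP3 receptors, 1 of 10 was past 2-fold higher and none lower, near the share over all genes. The 1 gene was Gnai2, an inhibitory G protein subunit (log2 ratio 1.09). Gnaq, a subunit that activates phospholipase C, was at -0.54, and Plcb1, a phospholipase C, at -0.86. Among 10 other transmitter receptors Hrh1, a histamine receptor (-1.74), and Adra1b, an adrenergic receptor (-1.02), were past 2-fold lower. Of 5 uptake genes only the GABA transporter Slc6a11 was past 2-fold lower (501 against 1180 CPM, -1.23), while the glutamate transporters Slc1a2 and Slc1a3 were at -0.32 and 0.18.

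Over the 13 profiles of a class in a library with at least 20 cells, the genes most like Gria2 were Phactr3, Ptprt and Gpr158 (Pearson r of log2 levels 0.994, 0.963 and 0.955, among 14728 genes). Those most like Grm5 were Brinp2, Pax3 and Slitrk5 (0.921, 0.920 and 0.918), and those most like Gabbr2 were Wnt7b, Adora1 and Egfem1 (0.957, 0.956 and 0.945). For Gria1 they were Gli3, Gm3764 and Trp63, for Grm3 Gm266, Idh3b and Gm1604a, for Grm8 Ccdc190, Plcd4 and Them4, and for Gabbr1 Dtx1, Arhgef19 and Msi1. The profiles share libraries and differ in depth, and r is given as a description.

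**Figure D4:**
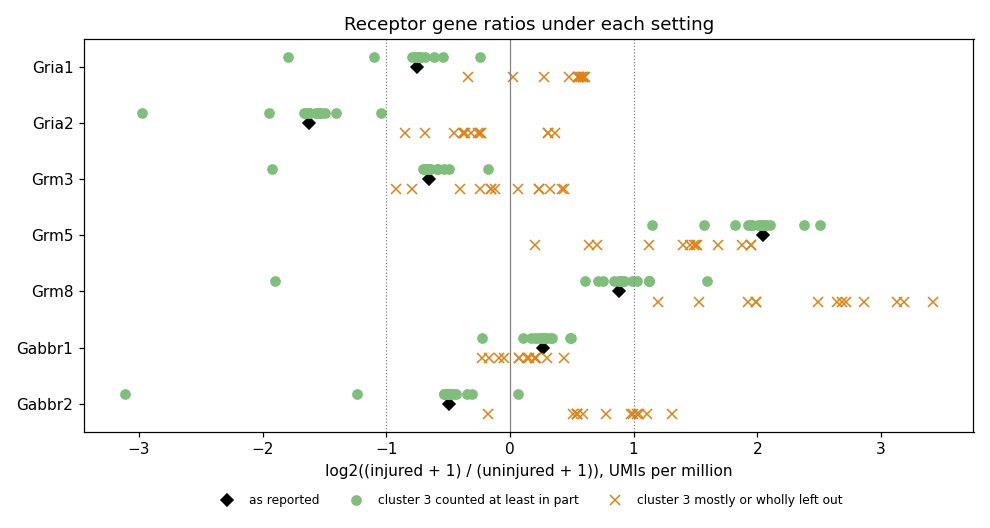
Log2 ratio of each receptor gene in injured over uninjured astrocyte-like cells under the settings tried, except leaving out the richest cells. Diamonds are as reported, circles have cluster 3 counted at least in part, and crosses have cluster 3 mostly or wholly left out. Grm5 lies above 0 throughout, from 0.20 to 2.51, while Gria1, Gria2 and Gabbr2 lie mostly on one side of 0 with cluster 3 and reach the other side without it.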

How the data were processed

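For each condition the authors deposited a matrix of UMI counts per gene and cell, made with Cell Ranger (7.1.0 per the file headers, 8.0.1 per the submitters' processing notes, which name the build mm10) and not normalised. Whether intronic reads were counted is not given in the sources used here, so levels are not compared between genes. Counts were scaled to 10000 per cell, log transformed and clustered with 2000 variable genes, 15 components, 15 neighbours and Leiden resolution 0.5 (scanpy 1.11.5, igraph 0.11.9), leaving out 47 receptor genes, tdTomato and EGFP. A cluster was named for the class whose markers scored highest on average. The score had to exceed 0.2, 3 or more of the markers had to reach 10% of the cells, and the 10 leading genes could not hold more markers of a different class.

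The receptor genes, lists and markers were chosen with earlier results of these data known. Scoring and folds against the equal-weight mean over clusters, with seed 0, were adopted after 12 other combinations of scaling, seed, iterations, receptor genes kept or left out, score and fold had been run, in which folds were taken against the pooled other cells. Cluster names were seen for all 12 and the receptor genes' ratios for 2 of them. The adopted rule was taken because the pooled cells were mostly uninjured astrocytes, and a mural marker (Tagln) among the leading genes had kept cluster 3 unnamed. The choice was thus not blind to the results, and all 12 are reported in the section on processing.

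Sums of UMIs over a class are given as CPM with exact Poisson 95% intervals, shares with Clopper-Pearson intervals and ratios with exact conditional binomial intervals. Ratios add 1 CPM to both sides on the log2 scale, and a gene was called at 2-fold among genes at 10 CPM or more. A level of 0 allows 3 counts. Cells were scored by Xist and Y-linked genes. Named genes were all 7, list genes past 2-fold (up to 5 per list), and the 3 most alike. A list gene that the rule would name is not reported here. The ratio was tested on simulated data. No doublets were removed: Scrublet marked 2 of 5038 cells, too few to have worked.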

Additional observations from a re-analysis of the deposited data

Results flagged for a closer look

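In 2 genes an injured to uninjured ratio in another class pointed the other way from that in astrocyte-like cells, with both intervals apart from 1. Grm5 was lower in injured than in uninjured neuron-like cells (log2 ratio -3.16, from 3 and 81 UMIs, of which 44 were in 1 uninjured cell) but higher in astrocyte-like cells (2.05). The neuron-like cells of the 2 libraries differed in makeup, with astrocyte markers summing to 941 CPM (injured) and 8237 CPM (uninjured). At Leiden resolution 1.0 only 8 injured cells were named neuron-like, and 41 lay in an unnamed cluster led by mitochondrial genes. Gabbr1 was lower in injured microglia-like cells (-3.15, from 11 and 7 UMIs) and fibroblast-like cells (-0.83, from 33 and 27 UMIs) but higher in astrocyte-like cells (0.27). That rise was small. Without the 10 richest cells of each library, a larger share of the injured cells, the ratio was 1.04 (0.916 to 1.18). It was also below 0 on the log2 scale in 5 of 29 other settings. The microglia-like and fibroblast-like classes differed in makeup as well. Neutrophil or monocyte markers summed to 875 CPM in injured and 25.5 CPM in uninjured microglia-like cells. A fibroblast-like cluster led by Myoc and Smoc2 held 0 injured and 48 uninjured cells. With 1 library per condition these differences between classes were not tested.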

How the results depend on the processing

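No paired analysis was possible because there was a single library of each kind, and no replicate could be left out. As reported, 1 gene was past 2-fold higher and 1 lower in injured astrocyte-like cells, with a median log2 ratio of -0.50. The outcome depended on whether cluster 3 counted as astrocyte-like and on a filter for OPC markers. For Grm3 and Gabbr2 it also depended on the 10 richest cells of each library, without which both were past 2-fold lower. That step took a larger share of the injured cells and tends to lower ratios in itself. Without cluster 3, 2 genes were higher and 0 lower (12.3% and 18.2% of all genes), the median was 0.54, and Gria2 turned to 0.31. In the 12 setups run before the reported one was adopted, with 12 to 115 injured astrocyte-like cells, 0 genes were lower in each, and 1, 2 or 3 were higher, against 11.3% to 27.4% and 9.44% to 20.5% of all genes. Their medians were 0.44 and 0.61 (setup A, receptor genes left out and kept), 0.28 and 0.60 (setup B), 0.59, 0.55, 0.57 and 0.47 (grid, genes not scaled) and 0.54, 0.54, -0.18 and 0.020 (grid, genes scaled). In the scaled grid with receptor genes left out Gria2 was at 0.36 and 0.31. Grm5 was above 0 in 12 of 12 and past 2-fold in 9, Grm8 past 2-fold in 12, Gria1 above 0 in 11, Gabbr2 in 11, Gabbr1 in 8, Grm3 in 6 and Gria2 in 2. The reported fall of Gria2 thus rests on the adopted naming rule, together with the definition by an Aldh1l1 UMI, which used no clusters. Added after seeing the data were these setups, leaving out cluster 3, counting the unnamed cluster, the OPC marker and shared barcode filters and leaving out the richest cells.

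With cluster 3 counted at least in part, Grm5 stayed past 2-fold higher (1.14 to 2.51) and Gria2 past 2-fold lower (-2.98 to -1.04) in 16 of 16 settings. Then 2 genes were higher at Leiden resolution 1.0 (median 0.061), with the receptor genes kept in clustering, in male cells alone, in cells without neuron marker UMIs and with the unnamed cluster counted (7.79% to 12.1% of all genes). At resolution 1.0 the reported rule itself left a cluster of 177 injured cells led by Tgm1 and Vgf unnamed, and so out of the ratio. Lower were 3 genes among all cells with an Aldh1l1 UMI (7.06% of all genes), and 5 among cells without an OPC marker UMI (23.7% of all genes, median -1.90, Grm8 at -1.90), a filter that kept cells of little Lhfpl3. Against other classes, Grm5 in the uninjured library, the 1 gene past 2-fold lower, was no longer so (0 genes) in cells without neuron or OPC marker UMIs, after thinning, and in setup A. Depth limited Grm8, Grm3 and Gabbr2 most, with 113 to 138 injured UMIs each.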
